A study of Mus musculus with 20 samples.

Results

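The Cyp3a genes of the mouse encode cytochrome P450 enzymes of the liver. The 7 genes described here are Cyp3a11, Cyp3a13, Cyp3a16, Cyp3a25, Cyp3a41a, Cyp3a44 and Cyp3a59. They were chosen by gene symbol, with every probe that carries the symbol kept, which gave 11 probes of 7 genes among 30146 probes of 21450 gene symbols. Of the 11 probes, 8 passed the filter on low counts, among 14122 probes tested, and the 3 that did not were the probes of Cyp3a16. The rule itself uses no measured value, although the genes were chosen with earlier results of these data known.

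CYP3A enzymes sit in the membrane of the endoplasmic reticulum and oxidise steroids, bile acids and a wide range of drugs, drawing electrons from the reductase Por and from cytochrome b5. Their genes are classic targets of the pregnane X receptor PXR (Nr1i2) and the constitutive androstane receptor CAR (Nr1i3), which pair with the retinoid X receptor and bind DNA at paired copies of a short core motif. In the mouse, Cyp3a11 is the main drug-metabolising member of the adult liver and is closest in role to human CYP3A4. Cyp3a41a, Cyp3a41b and Cyp3a44 are known for higher expression in female than in male livers, Cyp3a16 for expression in the fetal and newborn liver, and Cyp3a13 for expression in the intestine as well as the liver.

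Liver RNA of 20 male Balb-C mice aged 10 to 12 weeks was measured with TempO-Seq, which hybridises adjacent oligonucleotide probes to a target RNA, joins them, and counts the amplified products by sequencing. The mice received PFESA-BP2 (Nafion byproduct 2), a fluorinated ether sulfonic acid, by gavage on 7 days. A vehicle control group was set beside daily doses of 0.03, 0.3, 3 and 6 mg/kg. Each group had 4 mice and each mouse 1 library, so the spread is between animals. No allele or other agent is named in the labels, and the vehicle is given as deionized water in the protocol but as DMSO in the titles of the control samples; which was used is not settled here. Whole liver tissue was used, so fewer cells of a type and less RNA per cell cannot be told apart in any of the values.

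Library totals ran from 6823518 to 10310931 counts, and the floor of detection, taken as 3 counts, lay at 0.251 to 0.511 CPM. CPM is the count of a probe for every 1000000 counts in its library, after scaling by the trimmed mean of M values (TMM). Averaged over the other libraries of the same group, the correlation was 0.892 for replicate 4 of the 3 mg/kg group and 0.949 for replicate 4 of the 6 mg/kg group, and at least 0.954 for the other 18. Log2 changes of Cyp3a probes that turn on those 2 libraries, and the counts of the gene lists, are given with and without them. By the well positions in the titles, the control and 0.03 mg/kg libraries lay in plate row A, the 3 and 6 mg/kg libraries in row B, and the 0.3 mg/kg group in both, with only its replicate 4 in row B. Hepatocyte markers were abundant in every library, with a summed level of 39914 to 69312 CPM for 17 genes.

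In the GENCODE M21 annotation of GRCm38, 6 of the 7 genes lie in a cluster on chromosome 5 together with Cyp3a41b and Cyp3a57, which have probes in the table but are not among the 7. The cluster of 8 genes spans chr5:145345279-146113287, which is 768 kb. From low to high coordinates, it holds Cyp3a16 at chr5:145436309-145469723, Cyp3a41a at chr5:145694049-145720136 and Cyp3a44 at chr5:145773983-145805874. It continues with Cyp3a11 at chr5:145854426-145879964, Cyp3a25 at chr5:145977194-146009618 and Cyp3a59 at chr5:146079257-146113287, and of these 6 genes only Cyp3a59 is on the plus strand. Cyp3a13 is at chr5:137892932-137921619 on the minus strand, 7.42 Mb from the cluster. These positions are of whole genes, since the positions of the probes on the transcripts were not used here.

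The DNA before the start sites is shown because in some of the genes it carries the core motif AGGTCA or its variant AGTTCA. Receptors of the PXR and CAR type bind to these motifs. Each line gives bases 250 to 111 before the RefSeq start site (GRCm38.p6), read in the direction of the gene, and capitals mark the motif on either strand. For Cyp3a11 the RefSeq start site lies inside the GENCODE gene given above, and the stretch shown ends directly before that gene, at chr5:145879964. Motif positions here count from the RefSeq start site. On the opposite strand AGGTCA reads TGACCT and AGTTCA reads TGAACT. All are from the minus strand, at chr5:145879965-145880104 for Cyp3a11, chr5:145720247-145720386 for Cyp3a41a, chr5:145805985-145806124 for Cyp3a44, chr5:146009729-146009868 for Cyp3a25 and chr5:137921730-137921869 for Cyp3a13.
Cyp3a11: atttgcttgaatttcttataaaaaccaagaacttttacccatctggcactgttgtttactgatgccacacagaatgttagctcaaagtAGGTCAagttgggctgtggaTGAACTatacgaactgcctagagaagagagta
Cyp3a41a: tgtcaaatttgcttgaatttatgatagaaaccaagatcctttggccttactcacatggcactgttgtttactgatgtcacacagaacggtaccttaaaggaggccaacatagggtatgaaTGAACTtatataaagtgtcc
Cyp3a44: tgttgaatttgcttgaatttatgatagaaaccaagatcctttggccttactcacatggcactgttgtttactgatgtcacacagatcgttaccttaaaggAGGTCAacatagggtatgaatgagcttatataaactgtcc
Cyp3a25: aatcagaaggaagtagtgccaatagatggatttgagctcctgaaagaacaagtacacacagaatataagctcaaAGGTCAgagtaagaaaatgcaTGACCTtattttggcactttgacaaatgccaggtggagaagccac
Cyp3a13: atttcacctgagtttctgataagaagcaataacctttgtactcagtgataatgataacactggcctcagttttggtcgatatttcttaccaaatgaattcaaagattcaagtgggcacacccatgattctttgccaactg

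Over the whole 250 bases before the start, Cyp3a11 held AGGTCA with its first base at -162 and AGTTCA on the other strand with its first base at -142, so that the pair faces each other. Cyp3a25 held a facing pair of AGGTCA at -176 and -155, and Cyp3a59, whose upstream DNA is 95.6% identical to that of Cyp3a25, held the same pair at -177 and -156. Cyp3a41a held 1 motif, AGTTCA on the other strand at -130, and Cyp3a44 held 1, AGGTCA at -150, although the upstream DNA of these 2 genes is 94.4% identical. Cyp3a13 and Cyp3a16 held none in this window. Among 32851 upstream windows of the same length in the RefSeq table, 14.02% held AGGTCA, 11.84% held AGTTCA, 24.16% held either, and 3.7% held 2 or more. The log2 changes at 6 mg/kg described below were 1.86 for Cyp3a13 with no motif and 2.28 for Cyp3a41a with 1. With 2 motifs, they were 0.95 for Cyp3a25, 1.96 for Cyp3a59, and 1.87 and -0.50 for the 2 probes of Cyp3a11. Neither probe of Cyp3a44, with 1 motif, passed the test. A match of letters is a description only and was not tested for binding or for a relation to these changes.

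**Figure D1:**
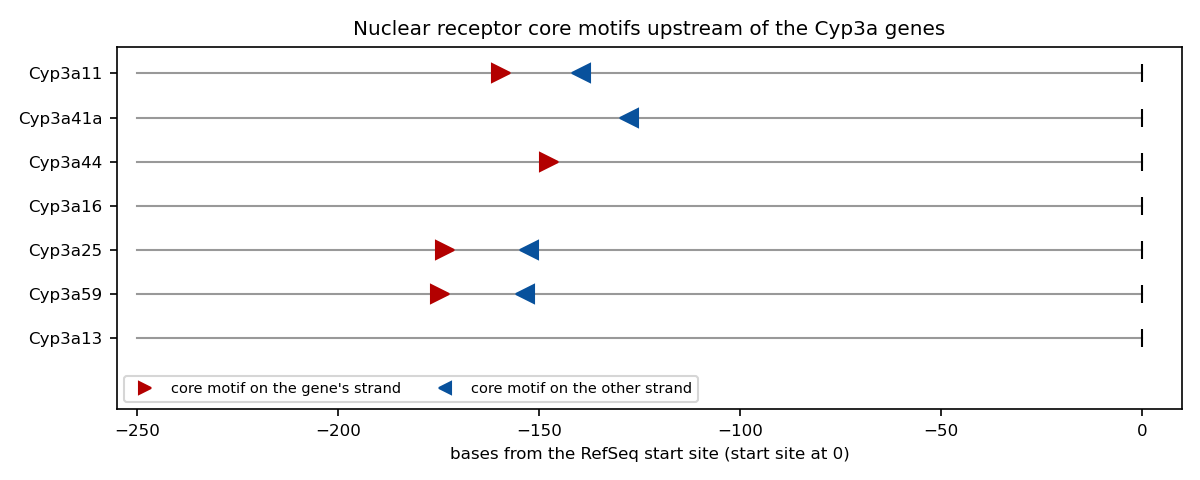
Position of the core motifs AGGTCA and AGTTCA in the 250 bases before the RefSeq start site of each Cyp3a gene, in bases from the start site; red triangles are on the strand of the gene and blue triangles on the other. Cyp3a11, Cyp3a25 and Cyp3a59 have 2 motifs each, Cyp3a41a and Cyp3a44 have 1, and Cyp3a16 and Cyp3a13 have none.

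The transcripts of the family are alike to different degrees, which bears on what a short probe can tell apart. The Cyp3a41a transcript is 99.9% identical to that of Cyp3a41b, and 98.6% of its stretches of 50 bases occur in at least 1 other Cyp3a transcript. Cyp3a25 and Cyp3a59 are 97.0% identical and share 24.6% of such stretches of Cyp3a25. Cyp3a11 is 94.8% identical to Cyp3a41a and shares 6.3% of its stretches with it, while Cyp3a13 is at most 77.5% identical to any other member and shares none. Over all other Cyp3a transcripts, the share of such stretches found elsewhere was 28.0% for Cyp3a59, 26.3% for Cyp3a25, 18.2% for Cyp3a44, 14.7% for Cyp3a11 and 10.5% for Cyp3a16. Counts of Cyp3a41a, and to a lesser degree of those 5 genes, are therefore uncertain as to the gene of origin.

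In control livers, the probe of Cyp3a25 gave 1897 ± 328 CPM (SD, n = 4, as for all group means here) and the probe of Cyp3a41a 410 ± 37.6 CPM. Of the 2 probes of Cyp3a11, probe 72954 gave 1566 ± 333 CPM and probe 30591 gave 355 ± 51.5 CPM. The probe of Cyp3a13 gave 12.6 ± 1.25 CPM, that of Cyp3a59 gave 1.84 ± 0.81 CPM, and the probes of Cyp3a44 gave 1.26 ± 0.76 and 0.55 ± 0.52 CPM. These levels do not rank the genes, since capture differs between probes and is not corrected for length.

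At 6 mg/kg, the highest dose, 5 of the 7 genes were higher than in control livers: Cyp3a11 by 1 of its 2 probes, Cyp3a13, Cyp3a25, Cyp3a41a and Cyp3a59. The rises of 4 of these lay close together, between 1.86 and 2.28 on the log2 scale, and that of Cyp3a25 was smaller at 0.95. Neither probe of Cyp3a44 passed the test, Cyp3a16 was at the floor of detection, and no Cyp3a probe was lower. By edgeR's quasi-likelihood test with Benjamini-Hochberg adjustment over all probes at a threshold of 0.05, 5 of the 8 tested Cyp3a probes were called higher, where 11.6% of all 14122 tested probes were. Without replicate 4 of the 3 and 6 mg/kg groups the same 5 were called, where 14.0% of 14271 tested probes were. For 4 of the 8 probes, those of Cyp3a13, Cyp3a25, Cyp3a41a and Cyp3a59, every 6 mg/kg library lay above every control library, where 13.2% of all probes did so.

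**Figure D2:**
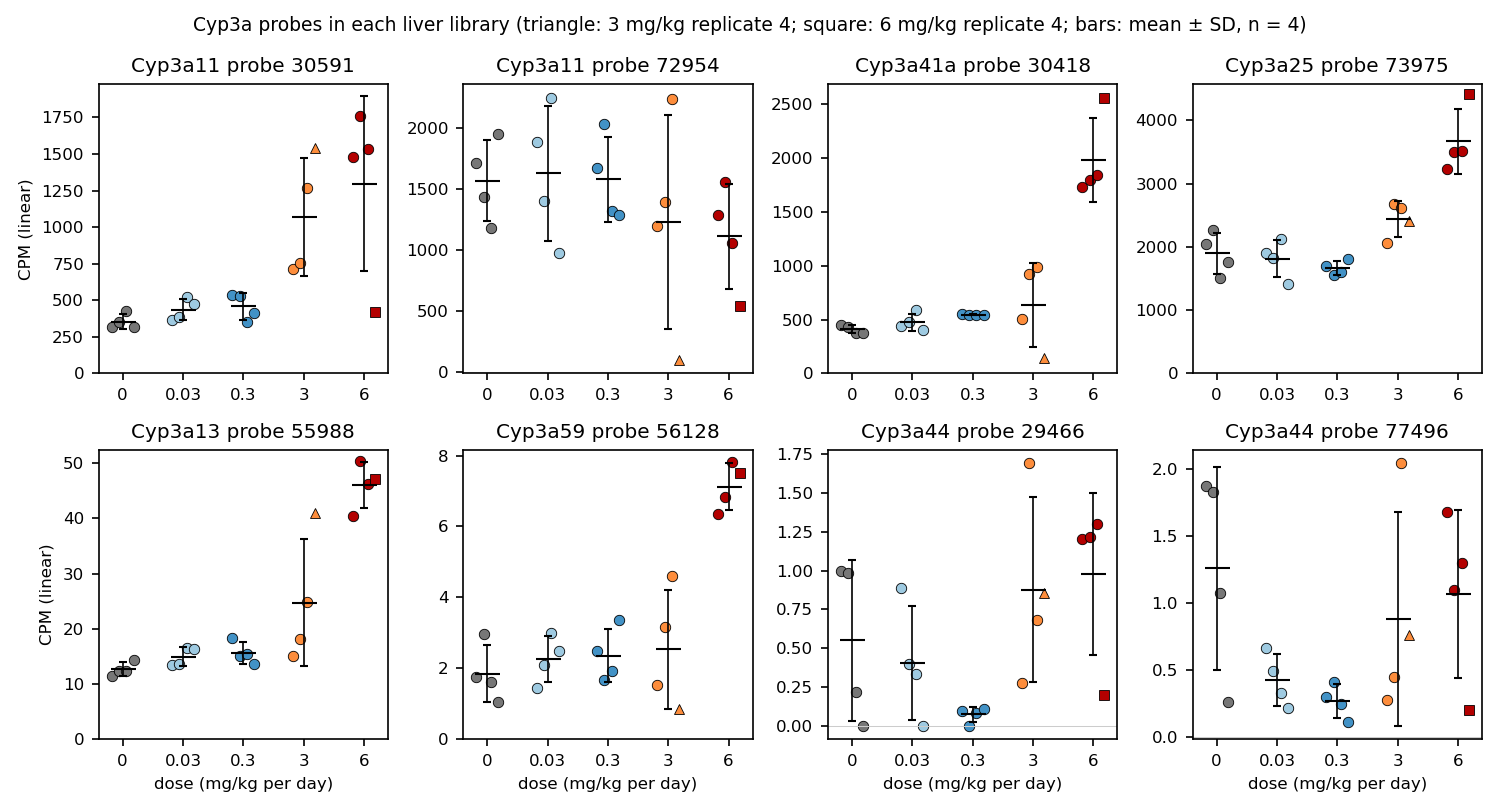
CPM of the 8 tested Cyp3a probes (linear axes from 0) against dose in mg/kg per day; each point is 1 liver library and bars are the mean ± SD of 4. At 6 mg/kg the libraries of Cyp3a41a, Cyp3a25, Cyp3a13 and Cyp3a59 all lie above the control libraries, whereas replicate 4 of Cyp3a11 probe 30591 lies at 421 CPM, within the control range of 318 to 429 CPM.

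Cyp3a11, the major inducible member, was read by 2 probes that gave different results. Probe 30591 stood at 1479, 1757, 1536 and 421 CPM in the 6 mg/kg livers, against 320, 353, 429 and 318 CPM in control livers. Replicates 1 to 3 lay above every control library and replicate 4 within the control range, so the groups overlapped. The log2 change was 1.87 (SE 0.33, edgeR adjusted p = 0.000514), and 2.18 (SE 0.19) without replicate 4 of both the 3 and 6 mg/kg groups. At 3 mg/kg the same probe gave 713, 756, 1265 and 1544 CPM, all above every control library, a log2 change of 1.59 (SE 0.33, edgeR adjusted p = 0.0135). That call was lost when control replicate 1 (adjusted p = 0.0559) or control replicate 4 (adjusted p = 0.0529) was left out of the edgeR fit.

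Probe 72954 of Cyp3a11 gave 1285, 1557, 1054 and 544 CPM at 6 mg/kg, against 1712, 1428, 1179 and 1943 CPM in control livers. The groups overlapped, and the log2 change of -0.50 (SE 0.54) had an edgeR adjusted p of 0.538. Its 3 mg/kg libraries spread from 95.5 CPM in replicate 4, the lowest of all 20, to 2232 CPM in replicate 3. The log2 change there was -0.35 (SE 0.54), and 0.03 without replicate 4 of both upper groups. With the counts of both probes summed, Cyp3a11 had a log2 change of 0.36 at 6 mg/kg (edgeR adjusted p = 0.403) and 0.27 at 3 mg/kg (adjusted p = 0.739), so the call of Cyp3a11 rests on probe 30591 alone.

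The log2 ratio of probe 30591 to probe 72954 within a library, which needs no scaling between libraries, averaged 0.14 ± 0.38 at 6 mg/kg and -2.12 ± 0.51 in control livers. Its mean was 0.39 ± 2.41 at 3 mg/kg, -1.78 ± 0.16 at 0.3 mg/kg and -1.84 ± 0.57 at 0.03 mg/kg. Every library at 3 and 6 mg/kg had a higher ratio than every control library. The difference from control was 2.26 at 6 mg/kg and 2.51 at 3 mg/kg, each with a two-sided exact permutation p of 0.0286, the smallest that 4 against 4 libraries allow, and 0.0571 after adjustment over 8 such tests. At 3 mg/kg the difference was 1.31 without replicate 4, whose ratio was 4.0 while the other 3 libraries lay between -0.88 and -0.74. Which transcripts each probe captures was not tested.

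**Figure D3:**
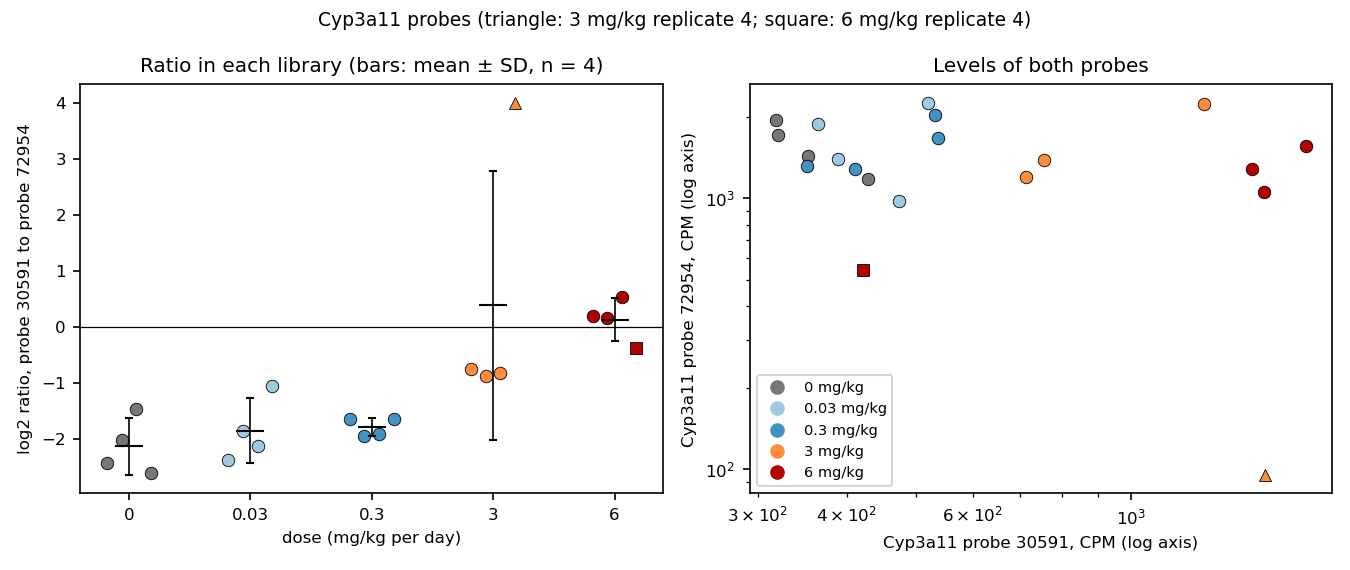
Left, log2 ratio of Cyp3a11 probe 30591 to probe 72954 in each library against dose, with bars for the mean ± SD of 4; right, CPM of both probes in each library on log axes, coloured by dose. The ratio averages 0.14 at 6 mg/kg and -2.12 in control livers, and replicate 4 of the 3 mg/kg group stands alone at 4.0.

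Cyp3a41a, known for higher expression in female livers, had the highest log2 change of the tested Cyp3a probes at 6 mg/kg over all 20 libraries. Without the 2 libraries that stand apart, Cyp3a11 probe 30591 was above it. The Cyp3a41a probe gave 1733, 1797, 1845 and 2562 CPM at 6 mg/kg, against 448, 436, 376 and 379 CPM in the male control livers. All 4 treated libraries lay above all control libraries, at 4.84 times the control mean. The log2 change was 2.28 (SE 0.36, edgeR adjusted p = 0.000208), and 2.14 (SE 0.16) without those 2 libraries. The 3 mg/kg libraries held 503, 919, 985 and 146 CPM, so that replicate 4 was the lowest of all 20 libraries and the other 3 lay above the controls. The log2 change at 3 mg/kg was 0.64 (SE 0.35, edgeR adjusted p = 0.472) and became 0.97 (SE 0.16, adjusted p = 0.000525) without replicate 4 of both upper groups, so the call at this dose turns on that animal.

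The near-identical gene Cyp3a41b was read by 2 probes of its own. At 6 mg/kg probe 30917 gave 5440, 5438, 5688 and 1617 CPM, against 1204, 1480, 1311 and 1331 CPM in control livers, and probe 73471 gave 11891, 14454, 13270 and 5486 CPM, against 2558, 3270, 3226 and 3345 CPM. Both groups of treated libraries lay above the controls, with log2 changes of 1.77 (SE 0.28) and 1.86 (SE 0.23), and of 2.07 (SE 0.14) and 2.10 (SE 0.15) without replicate 4 of both upper groups. In replicate 4 of the 6 mg/kg group both Cyp3a41b probes and Cyp3a11 probe 30591 had the lowest value of the group, while Cyp3a41a and Cyp3a25 had the highest. In replicate 4 of the 3 mg/kg group Cyp3a11 probe 30591 had the highest value of its group, while Cyp3a41a and Cyp3a11 probe 72954 had the lowest. The 2 libraries thus depart from their groups in different directions at different probes, and the reason was not tested.

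**Figure D4:**
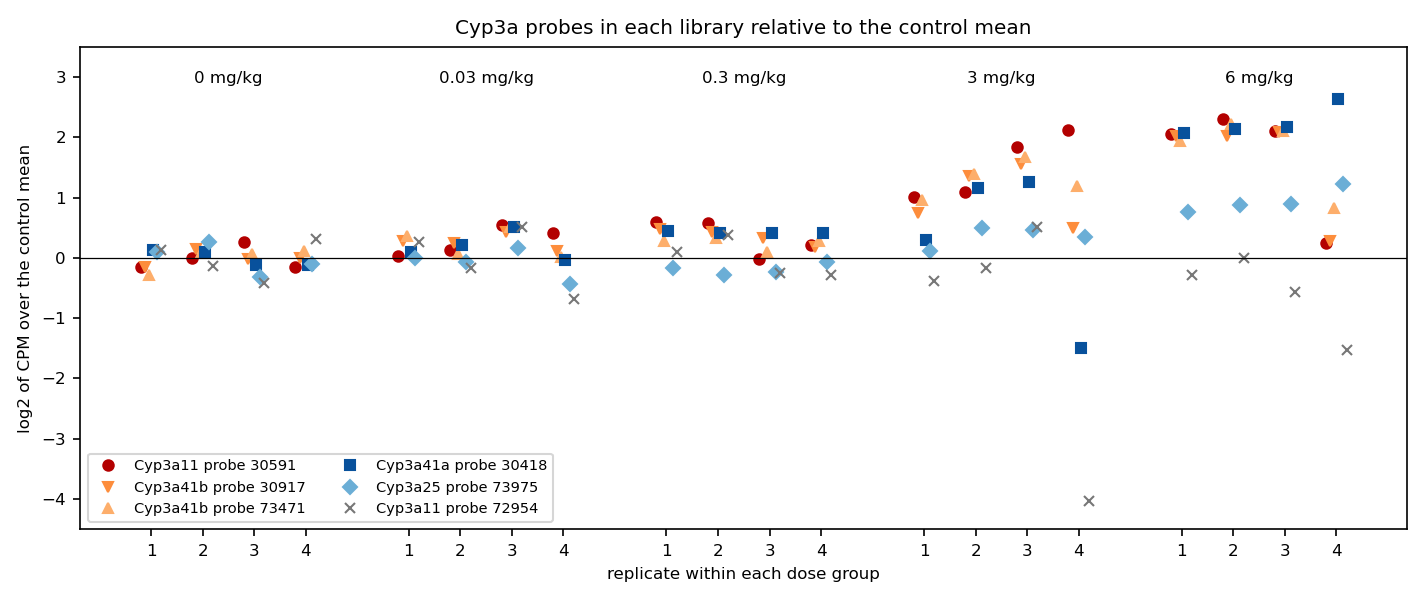
Log2 of CPM over the control mean for 6 Cyp3a probes in each of the 20 libraries, grouped by dose from low to high with replicates 1 to 4 in each group; 0 is the control mean. In replicates 1 to 3 at 6 mg/kg the probes of Cyp3a41a, Cyp3a41b and Cyp3a11 probe 30591 lie together near 2, and in replicate 4 they separate, with Cyp3a41a at 2562 CPM and Cyp3a11 probe 30591 at 421 CPM.

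Cyp3a13, the member outside the cluster, was low in control livers and rose at 6 mg/kg in all 4 libraries. Its probe gave 40.5, 50.4, 46.3 and 47.1 CPM at 6 mg/kg, against 11.5, 12.4, 12.3 and 14.4 CPM in control livers, 3.64 times the control mean with no overlap. The log2 change was 1.86 (SE 0.22, edgeR adjusted p = 6.29e-06), the smallest adjusted p of the 8 probes. The 3 mg/kg libraries held 15.1, 18.1, 24.9 and 40.9 CPM, all above the controls, with replicate 4 near the 6 mg/kg level. The log2 change there was 0.97 (SE 0.22, edgeR adjusted p = 0.0266), and 0.60 (SE 0.16, adjusted p = 0.0448) without replicate 4 of both upper groups. The call at 3 mg/kg was lost when any of control replicates 1, 2 or 3 or either of replicates 3 and 4 at 3 mg/kg was left out, with edgeR adjusted p between 0.0554 and 0.0965, and the change was 0.61 without replicate 4 of the 3 mg/kg group.

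Cyp3a25, an abundant steroid-hydroxylating member of the adult liver, rose less. Its probe gave 3234, 3502, 3523 and 4418 CPM at 6 mg/kg, against 2041, 2271, 1517 and 1759 CPM in control livers. The groups did not overlap, and the log2 change was 0.95 (SE 0.15, edgeR adjusted p = 0.000175). At 3 mg/kg the libraries held 2063, 2677, 2622 and 2404 CPM and overlapped with the controls, with a log2 change of 0.36 (SE 0.15, edgeR adjusted p = 0.329).

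Cyp3a59, the closest relative of Cyp3a25, was read at low depth, with 8 to 75 counts per library. It stood at 6.36, 6.82, 7.81 and 7.50 CPM at 6 mg/kg, against 1.75, 2.96, 1.62 and 1.04 CPM in control livers, 3.87 times the control mean. The groups did not overlap, and the log2 change was 1.96 (SE 0.38, edgeR adjusted p = 0.0011). Libraries of the 3 mg/kg group held 1.52, 3.16, 4.60 and 0.858 CPM, which overlapped with the controls, with a log2 change of 0.42 (SE 0.41, edgeR adjusted p = 0.725). Without replicate 4 of both upper groups that change was 0.73 (SE 0.36, edgeR adjusted p = 0.426). Although the 2 genes are near neighbours in sequence, the log2 change of Cyp3a59 was larger than that of Cyp3a25 at 6 mg/kg, a difference between genes that was not itself tested.

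Cyp3a44, also known for higher expression in female livers, was near the floor in these males. Probe 29466 gave 0 to 15 counts and probe 77496 gave 1 to 15 counts per library. At 6 mg/kg probe 29466 stood at 0.98 ± 0.52 CPM against 0.55 ± 0.52 CPM in control livers, a log2 change of 0.83 (SE 0.74, edgeR adjusted p = 0.446). Probe 77496 stood at 1.07 ± 0.63 CPM at 6 mg/kg against 1.26 ± 0.76 CPM in control livers, a log2 change of -0.25 (SE 0.58, edgeR adjusted p = 0.788). At 0.3 mg/kg probe 77496 held 0.27 ± 0.12 CPM, below the floor on average, with a log2 change of -2.16 (SE 0.68, edgeR adjusted p = 0.446). Probe 29466 was lower there too, at 0.074 ± 0.050 CPM and also below the floor, with a log2 change of -2.65 (SE 1.07, edgeR adjusted p = 0.546). At 0.03 mg/kg the log2 changes were -1.52 (SE 0.64) for probe 77496 and -0.40 (SE 0.82) for probe 29466, and neither passed. A difference was not detectable for Cyp3a44 at this depth.

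Cyp3a16, the fetal and newborn member, could not be tested. Probe 30712 had 0 counts in all 20 libraries, which allows up to 0.511 CPM in the library with the highest floor. Probe 32225 had a total of 2 counts over the 20 libraries and probe 81845 a total of 14, with a highest value of 5 counts in replicate 2 of the 3 mg/kg group. Such values do not separate the doses, and the limits cover counting error only.

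At the lower doses no Cyp3a probe was called. At 0.03 mg/kg 0% of all probes were called by edgeR, with 457 at an unadjusted p under 0.05, and the log2 changes of the 5 probes called at 6 mg/kg lay between -0.07 and 0.30. At 0.3 mg/kg 0% were called likewise, with 1175 at an unadjusted p under 0.05. There Cyp3a41a stood at 556, 543, 543 and 544 CPM, each above the highest control library at 448 CPM, with a log2 change of 0.42 (SE 0.35, edgeR adjusted p = 0.766). It was the 1 probe of the 8 that lay above all controls at this dose, where 3.33% of all probes did. Cyp3a11 probe 30591 was at 0.37 (SE 0.32), Cyp3a13 at 0.30 (SE 0.22), Cyp3a59 at 0.36 (SE 0.40) and Cyp3a25 at -0.19 (SE 0.15) on the same scale, and their libraries overlapped with the controls.

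At 3 mg/kg, 2 of the 8 tested probes were called higher, those of Cyp3a11 (30591) and Cyp3a13, where 1.11% of all probes were. The same 2 lay above all controls in every library, where 3.35% of all probes did. Without replicate 4 of both upper groups, Cyp3a41a was called as well, making 3, where 1.42% of all probes were. Between the 2 upper doses, which share plate row B, 4 probes were called higher at 6 than at 3 mg/kg in the fit over all 20 libraries, where 3.96% of all probes were. These were Cyp3a41a, with a log2 difference of 1.64 (SE 0.35, edgeR adjusted p = 0.0105), Cyp3a59 with 1.54 (SE 0.37), Cyp3a13 with 0.89 (SE 0.22) and Cyp3a25 with 0.59 (SE 0.15). Without replicate 4 of both groups they were still called, in another order. Cyp3a13 was then at 1.26 (SE 0.17), Cyp3a59 at 1.22 (SE 0.34), Cyp3a41a at 1.18 (SE 0.17) and Cyp3a25 at 0.50 (SE 0.15). Cyp3a11 probe 30591 differed by 0.28 (SE 0.32, edgeR adjusted p = 0.645), and by 0.82 (SE 0.20, adjusted p = 0.00876) without replicate 4 of both groups, a fit in which 8.96% of all probes were called higher. In a fit of the 8 libraries of the 3 and 6 mg/kg groups alone, none of the 7 Cyp3a probes tested was called, where 11 probes were called over the whole table. Left out alone, replicate 1 of the 3 mg/kg group left only Cyp3a41a called between these doses. Leaving out replicate 2 of either dose group cost the call of Cyp3a13, and leaving out replicate 4 at 6 mg/kg that of Cyp3a25.

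Over the rank of the 5 doses, 5 probes had a rising slope, where 11.3% of all probes did. The slope per dose step was 0.52 (SE 0.09) for Cyp3a41a, 0.50 (SE 0.07) for Cyp3a11 probe 30591, 0.45 (SE 0.06) for Cyp3a13, 0.45 (SE 0.09) for Cyp3a59 and 0.23 (SE 0.05) for Cyp3a25 on the log2 scale. Group means of Cyp3a41a, Cyp3a11 probe 30591, Cyp3a13 and Cyp3a59 followed the order of the doses, although the libraries of neighbouring groups mostly overlapped. With plate row as a covariate, which only the 0.3 mg/kg group can inform, 1 probe, Cyp3a13, was still called at 6 mg/kg and for the slope, and none at 3 mg/kg. In that fit 1.80% of all probes were called higher at 6 mg/kg, 2.03% for the slope and 0.00708%, a single probe, at 3 mg/kg. The log2 changes at 6 mg/kg in that fit were 2.29 (SE 0.74) for Cyp3a41a, 2.07 (SE 0.68) for Cyp3a11 probe 30591, 1.23 (SE 0.73) for Cyp3a59 and 0.79 (SE 0.30) for Cyp3a25.

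**Figure D5:**
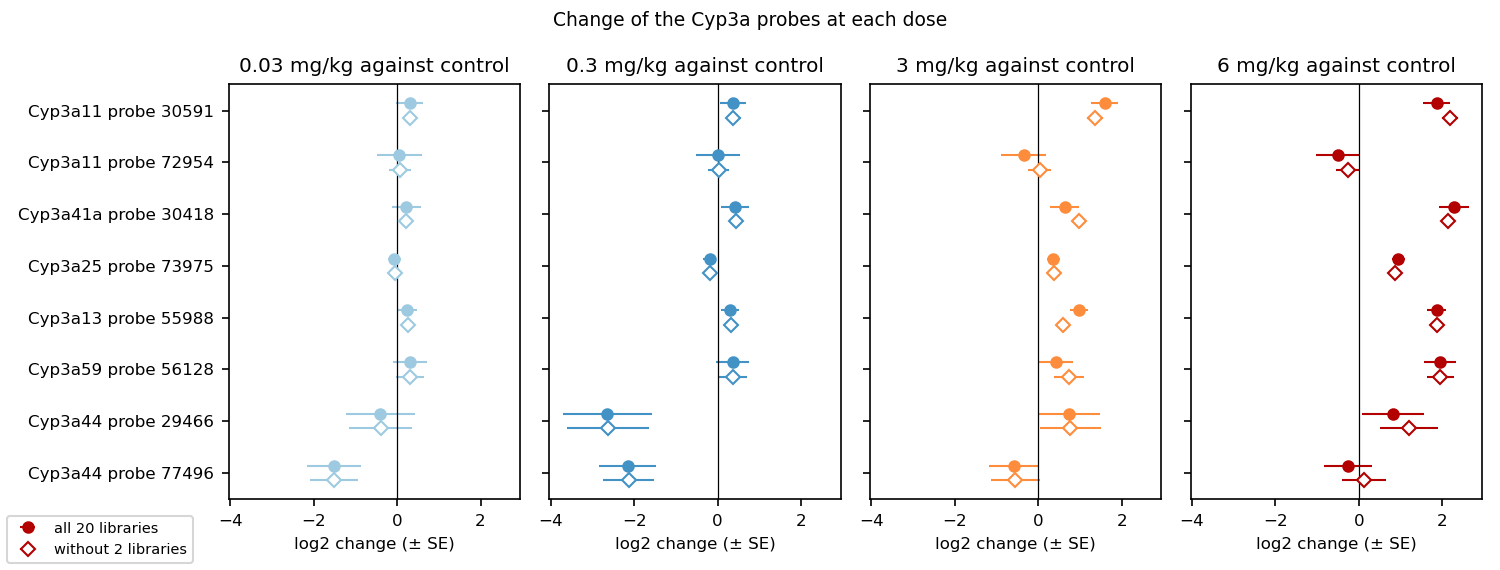
Log2 change against control (± SE) of the 8 tested Cyp3a probes at 0.03, 0.3, 3 and 6 mg/kg; filled circles are from all 20 libraries and open diamonds from the fit without replicate 4 of the 3 and 6 mg/kg groups. At 6 mg/kg 5 probes lie between 0.95 and 2.28, and Cyp3a11 probe 72954 lies at -0.50.

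The 7 genes together accounted for 0.404% ± 0.052 of the control counts, 0.425% ± 0.084 of those of the 0.03 mg/kg group and 0.451% ± 0.030 of those of the 0.3 mg/kg group. The share was 0.518% ± 0.093 for the 3 mg/kg group and 0.850% ± 0.068 for the 6 mg/kg group. The 6 mg/kg libraries held 0.793% to 0.943%, above all control libraries at 0.330% to 0.450%. Without replicate 4 the 6 mg/kg libraries held 0.793% to 0.856%. With Cyp3a41b and Cyp3a57 counted as well, the share was 0.827% ± 0.085 for the control group and 2.47% ± 0.47 for the 6 mg/kg group. By that count replicate 4 at 6 mg/kg was the lowest of its group, at 1.78%, with the others between 2.56% and 2.82%. These are shares of probe counts, in which probes of different capture are summed, and they carry no test.

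The receptor genes Nr1i2 and Ppara passed the test at 6 mg/kg, in opposite directions, and Nr1i3 did not pass it. Nr1i2, which encodes PXR, stood at 59.2 ± 16.2 CPM at 6 mg/kg and 35.2 ± 3.4 CPM in control livers, a log2 change of 0.75 (SE 0.18, edgeR adjusted p = 0.00642). Nr1i3, which encodes CAR, was at -0.58 (SE 0.21, edgeR adjusted p = 0.0608), and at -0.64 (SE 0.20, adjusted p = 0.0222) without replicate 4 of both upper groups. The partner receptor Rxra was at -0.29 (SE 0.20), the hepatocyte factor Hnf4a at -0.15 (SE 0.26) and the glucocorticoid receptor Nr3c1 at -0.10 (SE 0.13), none of which passed. Without those 2 libraries Rxra was at -0.45 (SE 0.17, edgeR adjusted p = 0.045) and Hnf4a at 0.06 (SE 0.25). Ppara, the fatty acid receptor, fell by 0.81 on the log2 scale (SE 0.17, edgeR adjusted p = 0.0023).

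Among all 31 tested regulators of Cyp3a genes, 5 rose and 5 fell at 6 mg/kg, with a median of -0.08, and none was called at 3 mg/kg. Without replicate 4 of both upper groups 5 of 32 rose and 7 fell at 6 mg/kg, where 14.0% of all probes rose and 13.7% fell. The rises with the smallest p were those of Ahr, the aryl hydrocarbon receptor, at 2.23 (SE 0.39), of Nfe2l2, which encodes the oxidative stress factor NRF2, at 1.07 (SE 0.22), and of Nr1i2. The falls with the smallest p were those of the liver factors Cebpa at -1.34 (SE 0.16) and Foxa3 at -1.32 (SE 0.24) and of the coactivator Ppargc1a at -1.46 (SE 0.26). Over all genes, taken as 1 probe each, 10.9% rose and 9.63% fell at 6 mg/kg, 1.13% rose at 3 mg/kg, and the median at 6 mg/kg was -0.02.

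The enzymes that supply CYP3A with electrons and heme were in part higher. Por, the reductase that serves all microsomal P450 enzymes, stood at 206 ± 111 CPM at 6 mg/kg and 21.9 ± 6.17 CPM in control livers, a log2 change of 3.23 (SE 0.36, edgeR adjusted p = 3.95e-06), with 1.98 (SE 0.34) at 3 mg/kg. Cyb5a, which encodes cytochrome b5, stood at 2476 ± 541 CPM at 6 mg/kg and 1266 ± 260 CPM in control livers, a log2 change of 0.97 (SE 0.17, edgeR adjusted p = 0.000469), with 0.70 (SE 0.17) at 3 mg/kg. Alas1, which encodes the first enzyme of heme synthesis, was at 2.15 (SE 0.76, edgeR adjusted p = 0.0534) at 6 mg/kg, and at 2.23 (SE 0.65, adjusted p = 0.0205) without replicate 4 of both upper groups. Of 16 tested genes of P450 electron transfer and heme synthesis, 7 rose and 0 fell at 6 mg/kg, with a median of 0.57, and 3 rose at 3 mg/kg. Among all genes 10.9% rose and 9.63% fell at 6 mg/kg, and 1.13% rose at 3 mg/kg. Without the 2 libraries 8 genes of this list rose and 0 fell at 6 mg/kg, where 14.0% of all probes rose and 13.7% fell. Por and Alas1 are also on the list of PXR and CAR targets described next.

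Known PXR and CAR target genes outside the Cyp3a family were higher in the same livers. Like all gene lists here, this list was chosen with earlier results of these data known, so its counts are a description only. Of 43 tested, 35 rose and 1 fell at 6 mg/kg, with a median log2 change of 2.26, and 18 rose and 0 fell at 3 mg/kg, with a median of 1.03. Among all genes 10.9% rose and 9.63% fell at 6 mg/kg, and 1.13% rose at 3 mg/kg. Without replicate 4 of both upper groups, 38 of 44 targets rose and 0 fell at 6 mg/kg, and 24 rose and 0 fell at 3 mg/kg, with medians of 2.08 and 0.82. In that fit 14.0% of all probes rose and 13.7% fell at 6 mg/kg, and 1.42% rose at 3 mg/kg. None of the targets was called at 0.03 or 0.3 mg/kg, where the medians were 0.11 and 0.29. Those with the smallest p were Gadd45b, a stress-inducible gene, at 5.65 (SE 0.38), Cyp2c66, another P450 gene, at 8.25 (SE 0.53), and Gstm3, a glutathione transferase, at 2.45 (SE 0.17). In control livers Cyp2c66 stood at 0.49 ± 0.36 CPM, at about the floor of detection, so only a rise could be called and its size is uncertain. Control levels were 2.54 ± 1.24 CPM for Gadd45b and 1835 ± 200 CPM for Gstm3. The member that fell was Cdo1, which encodes cysteine dioxygenase, at -0.50 (SE 0.17), and it did not pass without the 2 libraries, at -0.42 (SE 0.17, edgeR adjusted p = 0.0668).

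Cyp3a41a is known for higher expression in female livers, although its probe gave 410 CPM in these male control livers. Those of its near-identical copy Cyp3a41b gave 1331 and 3100 CPM there. Other genes known to differ between the sexes were set beside Cyp3a41a. Of 18 tested female-biased genes outside the Cyp3a family, 11 rose and 0 fell at 6 mg/kg, with a median of 1.90. They included Cyp4a14, a fatty acid hydroxylase, at 6.19 (SE 0.50), Sult1e1, an estrogen sulfotransferase, at 3.08 (SE 0.40), and the transporter Abcc4 at 2.58 (SE 0.36). In control livers Cyp4a14, Sult1e1 and Abcc4 were near the floor, with means of 1.58, 0.84 and 0.86 CPM, which left little room for a fall. Of the 28 genes of this list with probes, 18 passed the filter on low counts. Of 32 tested male-biased genes, 3 rose and 12 fell, with a median of -0.60, where 10.9% of all genes rose and 9.63% fell. Without replicate 4 of both upper groups, where 14.0% of all probes rose and 13.7% fell, 11 of 19 female-biased genes rose and 0 fell. In the same fit 4 of 32 male-biased genes rose and 12 fell. The falls included the steroid dehydrogenase Hsd3b5 at -3.15 (SE 0.45), the complement gene C9 at -1.96 (SE 0.22) and the urinary protein gene Mup3 at -1.20 (SE 0.22), and the rises Cyp4a12b at 1.06 (SE 0.19), Cyp4a12a at 0.87 (SE 0.19) and Cyp2d9 at 0.65 (SE 0.18). Of the 29 genes on the female-biased list, 4 are also on the list of PXR and CAR targets, Abcc4 among them, and Cyp4a14 is a known target of the fatty acid receptor PPARA.

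Markers of liver cell types were measured in the same libraries. The summed level of the 17 hepatocyte markers was 39914 to 52817 CPM at 6 mg/kg and 62326 to 69312 CPM in control livers, with 1 marker higher and 5 lower. The summed level of stellate cell markers was 391 to 420 CPM at 6 mg/kg and 568 to 616 CPM in control livers, and of 15 tested 1 was higher and 6 were lower. Of 14 Kupffer cell markers 0 were higher and 3 lower, and of 13 endothelial markers 2 were higher and 0 lower. Among all genes 10.9% were higher and 9.63% lower at 6 mg/kg. Of 9 lymphocyte and neutrophil markers 1 was higher, S100a8 at 4.92 (SE 0.45), and 2 were lower. Without replicate 4 of both upper groups, 14.0% of all probes were higher and 13.7% lower. The marker counts in that fit were 1 higher and 5 lower for hepatocytes, 2 and 6 for stellate cells, and 0 and 4 for Kupffer cells. They were 3 and 0 for endothelial cells, and 1 and 1 of 10 for lymphocytes and neutrophils. The part of these cell types in the Cyp3a changes was not tested.

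Since Cyp3a13 is also a gene of the intestine, enterocyte markers were examined. The intestinal genes Sis, Lct, Alpi, Cdx1, Cdx2, Rbp2, Muc13, Krt20 and Cdhr2 had at most 3 counts in every library. Of the 5 markers on that list that could be tested, all of which the liver also expresses, 3 were higher and 1 lower at 6 mg/kg. Among all genes 10.9% were higher and 9.63% lower. The marker counts were the same without the 2 libraries, where 14.0% of all probes were higher and 13.7% lower.

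Profiles over the 20 libraries were compared by the root mean square difference of centred log2 CPM. For each called member, the most alike genes were taken among 5150 outside the Cyp3a family with a mean of at least 10 CPM. For Cyp3a13 these were Papss2 (0.21), Aldh1a7 (0.22) and Ugt2b35 (0.22), where the median over all genes was 0.81. For Cyp3a25 they were Gbe1, Gsta3 and Psmd14, each at 0.16, where the median was 0.56. For Cyp3a41a they were Ces2b (0.30), Cyp2a22 (0.35) and Gstm2 (0.37), where the median was 1.02. For Cyp3a59 they were Rapgef4 (0.43), Hacd1 (0.47) and Cyp2a22 (0.47), where the median was 0.90. For Cyp3a11 probe 30591 they were Cyb5a, Stbd1 and Apcs, at 0.48 to 0.49 where the median was 0.90, about as distant as those of Cyp3a59. Other Cyp3a probes were not part of this comparison. The 20 points share dose, library and depth, so likeness here is a description.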

How the data were processed

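Raw counts of each probe in 20 liver libraries make up the deposited table, 1 column per mouse, with no normalization that the values show. The submitters' processing notes name Bowtie and the build GRCm38.p5, without roles; the sources used here do not give Bowtie's version or how probes were counted. Replicate numbers follow accession order and pair nothing. No pair of libraries looked like a copy: chi-square over its degrees of freedom was at least 3.83 in 30 pairs within groups and 4.28 in 160 pairs between groups.

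Probes kept by filterByExpr (default minimum count of 10) were fitted in edgeR 4.0.16 under R 4.3.3, with TMM scaling, 1 mean per group over all 20 libraries and a robust quasi-likelihood test. They held 99.8% of the counts and covered 10101 genes. A gene near the floor in control livers can pass this filter through its dosed libraries, and could then hardly be called lower. CPM was computed on library sizes multiplied by the TMM factors. Benjamini-Hochberg adjustment ran over all tested probes of a comparison, and adjusted values under 0.05 were called. Standard errors (SE) are the log2 change divided by the square root of the F statistic. Log2 ratios of 2 probes used CPM plus 1 and an exact permutation test in scipy 1.17.1. In gene lists each gene counts once, by its most abundant probe. Shares of all genes count in the same way, whereas shares of all probes, as in the fit without replicate 4 of both upper groups, count every probe. The 2 kinds of share are therefore not alike. Per probe, 11.6% were higher and 8.73% lower at 6 mg/kg over all 20 libraries. Alternatives included limma 3.58.1 (voom) and DESeq2 1.42.0. On simulated counts for 6 mg/kg against control, with 13591 probes tested, edgeR recovered 40.6% of 2-fold and 81% of 4-fold changes, with 8 false among 128 calls.

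Transcript and upstream identities were computed with Biopython 1.88 from GENCODE M21 transcripts and the RefSeq upstream table. Amplified reads are not independent molecules, so floors cover counting error only. The Cyp3a genes and all gene lists were chosen with earlier results of these data known. All probes of the Cyp3a genes are named whatever their values, as are 9 fixed regulators and partners; of each other list, the 3 called members with the smallest p in each direction at 6 mg/kg could be named. Cyp3a41b was outside the choice and is named as the near-identical copy of Cyp3a41a. Sequences of the probes were not used here.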

Additional observations from a re-analysis of the deposited data

Results flagged for a closer look

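In each group of 4 libraries, the highest or lowest value was set against the others by the ratio of its gap to the range of the group, Dixon's ratio, at its 95% critical value. Of 55 groups examined, 4 were past it, where chance gives about 5%, or 1 in 20. Cyp3a41a stood at 2562 CPM in replicate 4 of the 6 mg/kg group, with the other 3 libraries between 1733 and 1845 CPM. In the same library Cyp3a44 probe 29466 stood at 0.200 CPM, with the others between 1.20 and 1.30 CPM, a matter of 2 counts. The log2 ratio of Cyp3a11 probe 30591 to probe 72954 was 4.0 in replicate 4 of the 3 mg/kg group, with the others between -0.88 and -0.74. Cyp3a41a stood at 556 CPM in replicate 1 of the 0.3 mg/kg group, where the others lay within 542 to 544 CPM, so that a tight group rather than a distant value set the ratio.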

How the results depend on the processing

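No paired analysis was run, since each mouse was in 1 dose group and gave 1 library. At 6 mg/kg against control, leaving out 1 library at a time left 5 probes called each time; with plate row as a covariate 1 was called, of 508 over all probes, and no other alternative moved the count by over 1.5 times. The rising slope was called for 1 probe with plate row as a covariate, of 603 over all probes. At 3 mg/kg, where 2 probes were called, limma-voom, the fit on the 8 libraries compared and probes summed per symbol each called 1, of 178, 44 and 176 over the whole table. Plate row as a covariate called 0, of 1 over all probes, and leaving out single libraries 0 to 2. For 6 against 3 mg/kg, where 4 were called, the fit on 8 libraries called 0, of 11 over all probes, and leaving out single libraries 1 to 4. Without the major urinary protein (Mup) probes in the denominator, the share of the 7 genes was 0.482% for the control group, 0.512% for 0.03, 0.517% for 0.3, 0.627% for 3 and 0.933% for 6 mg/kg.

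Every change of sign was at a probe that did not pass the test in that comparison. With plate row as a covariate, Cyp3a59 was at -0.31, Cyp3a11 probe 72954 at 0.033 and Cyp3a44 probe 77496 at 0.81 at 3 mg/kg, and the last of these at 1.14 at 6 mg/kg, where it was at 0.13 without replicate 4 of both upper groups. Without those 2 libraries Cyp3a11 probe 72954 was at 0.033 at 3 mg/kg. For 6 against 3 mg/kg it was at 0.040 with total counts only and 0.43 with limma-voom, and Cyp3a44 probe 29466 at -0.028 with limma-voom. The slope of Cyp3a44 probe 77496 was -0.39 with plate row and -0.000757 with TMM factors from counts without Mup probes, and that of probe 29466 was -0.27 with plate row. Leaving out single libraries moved Cyp3a11 probe 72954 within -0.14 to 0.23 at 0.03 mg/kg, -0.14 to 0.14 at 0.3, -0.80 to 0.035 at 3 and -0.52 to 0.31 for 6 against 3 mg/kg. It moved Cyp3a25 within -0.16 to 0.037 at 0.03 mg/kg. It moved Cyp3a44 probe 29466 within -1.08 to 0.078 at 0.03 mg/kg and -0.21 to 0.62 for 6 against 3 mg/kg, and probe 77496 within -0.56 to 0.097 at 6 mg/kg and -0.084 to 0.13 for the slope. The cause was not tested.

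Depth limits Cyp3a16, Cyp3a44 and Cyp3a59. Dose and plate row cannot be told apart except through 4 libraries, and the 2 probes of Cyp3a11 differ.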

Other observations

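Genes known from the fetal and newborn liver were set beside Cyp3a16. Of the 15 on that list, 4 could be tested. At 6 mg/kg 2 rose, where 10.9% of all genes did, and at 3 mg/kg 0 rose, where 1.13% did. Without replicate 4 of both upper groups, 3 rose at 6 mg/kg, where 14.0% of all probes did. Acaa1b, a peroxisomal thiolase, was at a log2 change of 2.30 (SE 0.33, edgeR adjusted p = 5.29e-05) and Peg3, an imprinted zinc finger gene, at 2.44 (SE 0.56, edgeR adjusted p = 0.00385). Peg3 stood at 0.27 ± 0.12 CPM in control livers, at about the floor, and at 1.56 ± 0.81 CPM at 6 mg/kg. At that control level only a rise could be called. Acaa1b is also a gene of the adult liver, and the summed level of the list was low, at 15.0 to 23.2 CPM at 6 mg/kg and 7.11 to 8.95 CPM in control livers.

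Of the remaining marker lists, 0 of 3 tested cholangiocyte markers were called at 6 mg/kg, where 10.9% of all genes were higher and 9.63% lower. Of 3 tested erythroid markers 1 was higher, Alas2 at a log2 change of 1.21 (SE 0.42). Among stellate cell markers, Col1a1, which encodes a collagen chain, was the member that rose, at 2.07 (SE 0.51), and at 0.98 (SE 0.31) without replicate 4 of the 3 and 6 mg/kg groups, while Hgf at -1.24 (SE 0.23) and Dcn at -1.17 (SE 0.22) fell.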
